A study of Mus musculus with 24 samples.

Results

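The retinas of gasdermin D knockout (GSDMD-KO) mice were compared with those of wild-type (WT) mice, all kept in room air (RA). The members were 6 of the 24 libraries of the series, picked from the genotype and exposure that the labels give: 3 KO-RA retinas and 3 WT-RA retinas. The series also holds retinas of both genotypes exposed to hyperoxia (KO-O2 and WT-O2, 3 each) and lungs in the same design. The comparison asks how the retinal transcriptome differs by genotype when no oxygen injury has been given.

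Both groups were on a C57/B6 background. The knockout had lost 38 bp of Gsdmd exon 5 through CRISPR/Cas9 editing, in every cell of the body. The study's methods describe homozygous knockouts and WT littermates from matings of heterozygotes. The labels give no litter or parents, so which of these libraries came from littermates is not known. RA mice stayed in room air from postnatal day 1 to 17, and retinas were collected on postnatal day 18. The O2 mice had 75% oxygen from postnatal day 7 to 12 and room air after it. Whole retinas were sequenced, so fewer cells of a type and less RNA per cell cannot be told apart. Each library has its own number in the labels, and the replicate numbers used here follow the order of the deposit and pair nothing.

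Gasdermin D is the pore-forming protein of pyroptosis, an inflammatory form of cell death. Inflammasomes, sensor complexes built around proteins such as NLRP3 and the adaptor ASC (gene Pycard), activate caspase-1, and caspase-1 or caspase-11 (gene Casp4) cuts gasdermin D. The freed amino-terminal part opens pores in the plasma membrane, through which interleukin-1β and interleukin-18 leave the cell. In the retina, microglia and Müller glia are among the cells studied as sources of inflammasome activity.

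The 6 libraries held 27063665 to 28742551 counts assigned to genes. All 6 had Y-linked expression (123.8 to 159.9 CPM, counts scaled to a common library size, summed over the Y-linked genes), so sex did not differ between the groups. Lens transcripts set 3 libraries apart on both sides of the comparison. The summed level of 34 lens genes was 348 and 278 CPM in KO-RA replicates 1 and 2 and 89250 CPM in KO-RA replicate 3. It was 403 CPM in WT-RA replicate 1, 51310 CPM in replicate 2 and 148800 CPM in replicate 3. Lens genes are therefore described apart at the end, and the main counts were also made within the lens-high and the lens-low libraries.

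Gsdmd (ENSMUSG00000022575) lies on the plus strand at chr15:75862327-75867408 of GRCm38 and has 11 exons in its longest transcript. Exon 5, at chr15:75865423-75865525, is coding throughout, and its reference sequence is shown because the edit removed 38 of its 103 bases. Which 38 is not given in the sources used here.

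Gsdmd exon 5: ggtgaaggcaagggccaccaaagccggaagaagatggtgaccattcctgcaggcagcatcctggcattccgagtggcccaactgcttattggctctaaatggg

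Gsdmd transcripts were rare in these retinas. KO-RA replicates 1 to 3 held 29, 23 and 16 counts (0.98, 0.774 and 0.636 CPM), and WT-RA replicates 1 to 3 held 102, 11 and 63 counts (4.08, 0.419 and 2.70 CPM). The library labelled WT-RA replicate 2 was thus below every KO-RA library, and the groups overlapped. The log2 fold change, KO-RA minus WT-RA, was -1.58 (standard error, SE, 0.65), which was not called (adjusted p = 0.35, edgeR with Benjamini-Hochberg adjustment over all genes). Without WT-RA replicate 2 it was -2.08. Reads from the parts of the transcript outside the deletion still count toward Gsdmd, so these levels are no direct reading of the deleted allele. By quantitative RT-PCR the study found hardly any Gsdmd transcript in KO retinas. Its text describes the protein as undetectable there, and its figure legend as decreased. After hyperoxia the KO retinas held 1.11, 1.44 and 2.95 CPM and the WT retinas 5.70, 2.90 and 3.85 CPM, a log2 difference of -1.17.

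Calls required a fold change of 2 or more in either direction, an adjusted p under 0.1 and an unadjusted p under 0.05. Of 19173 genes tested, 1 was called (0.00522%), and it was lower in KO-RA. This gene is mt-Nd3 (ENSMUSG00000064360), which encodes a subunit of complex I of the respiratory chain in the mitochondrial genome. It held 161.6, 653.3 and 566.7 CPM in the KO-RA retinas and 6292, 6482 and 6790 CPM in the WT-RA retinas. Every KO-RA library was below every WT-RA library. The log2 fold change was -3.82 (SE 0.41), with an adjusted p of 0.0284 in edgeR with Benjamini-Hochberg adjustment. The call was lost without KO-RA replicate 3 or without any 1 of the WT-RA libraries (adjusted p 0.102 to 0.21 in edgeR), and with the 6 room-air retinas fitted alone (adjusted p = 0.371), while the log2 fold change stayed between -4.16 and -3.42.

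The fall of mt-Nd3 was accompanied by counts on a near-identical copy. mt-Nd3 lies on the plus strand at chrM:9459-9806 (348 bases), and the unprocessed pseudogene Gm28438 (ENSMUSG00000101939) at chr1:24612775-24613119 on the minus strand (345 bases). In the aligned part they differ by 1 substitution, T3C, counted from 1 at the start of mt-Nd3 (chrM position 9461), and the copy lacks the last 3 bases. The first 60 bases of each are shown because they hold the only base, here in a capital, by which a read in the shared part can be told apart.

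mt-Nd3, chrM:9459-9518, plus strand: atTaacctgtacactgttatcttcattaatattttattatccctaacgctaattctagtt
Gm28438, chr1:24613060-24613119, minus strand: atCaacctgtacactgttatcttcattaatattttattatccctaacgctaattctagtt

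Gm28438 held 2658, 4923 and 5040 CPM in the KO-RA retinas and 2256, 319.8 and 51.5 CPM in the WT-RA retinas. The copy thus took 94.3%, 88.3% and 89.9% of the counts of the pair in KO-RA and 26.4%, 4.70% and 0.752% in WT-RA. The summed level of both was 2819, 5576 and 5606 CPM in KO-RA and 8548, 6802 and 6842 CPM in WT-RA. Summed before the fit, the pair had a log2 fold change of -0.66 and was not called (adjusted p = 0.282 in edgeR with Benjamini-Hochberg adjustment). How much of the difference in mt-Nd3 is a difference in transcript level and how much is assignment between the pair was not tested.

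The same split did not follow the genotype in the other retinas. In all 6 O2 retinas, KO and WT, the copy took at most 0.024% of the pair, and mt-Nd3 held 4745 to 5525 CPM in KO-O2 and 4490 to 5407 CPM in WT-O2. In the lungs, from a table tested separately, the copy took 90.0% to 95.8% of the pair in all 6 KO libraries and at most 25.6% in the 6 WT libraries. The KO-RA retinas were thus like the KO lungs in this measure, and the KO-O2 retinas were like WT libraries. The other 12 protein-coding genes of the mitochondrial genome did not share the size of the mt-Nd3 difference. Of the 13, 11 had a negative log2 fold change, with a median of -0.18 against 0.00055 over all genes. At an unadjusted p under 0.05, 2 were lower, mt-Nd3 and mt-Atp6, a subunit of ATP synthase with a log2 fold change of -0.31 (SE 0.11).

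**Figure D1:**
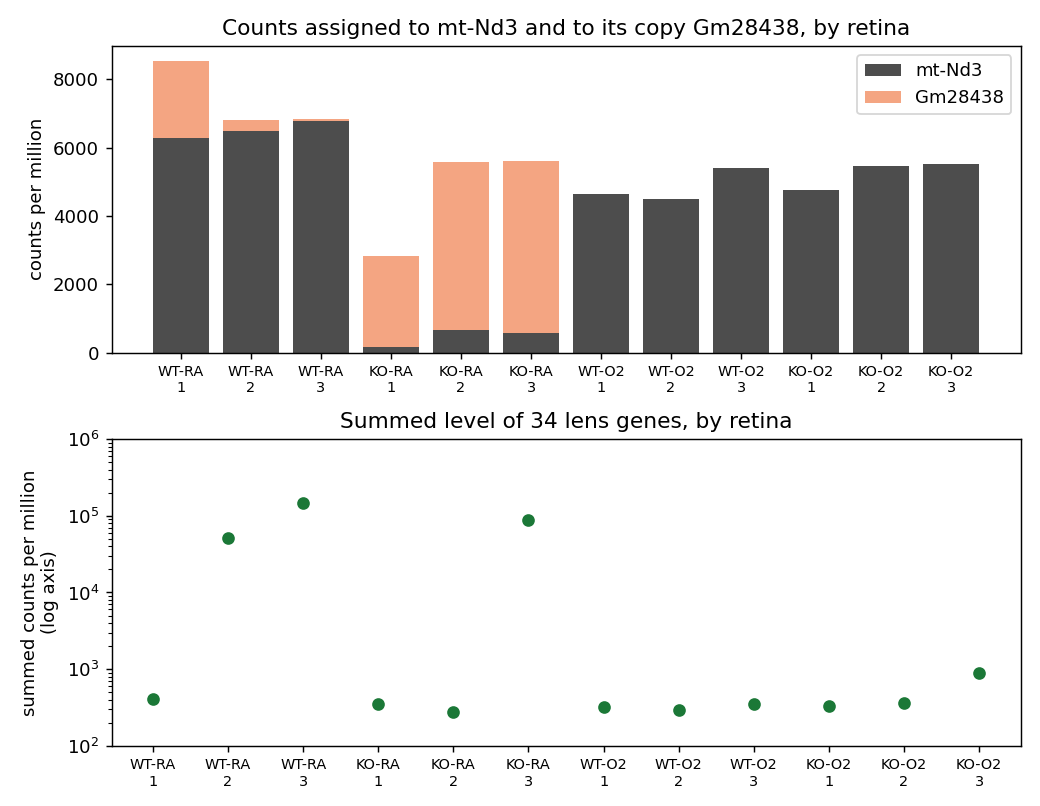
CPM in each of the 12 retinas, by group and replicate: upper panel, mt-Nd3 (dark bars) with its copy Gm28438 stacked on it; lower panel, the summed level of 34 lens genes on a log axis. The copy holds 88.3% to 94.3% of the pair in the 3 KO-RA retinas and at most 26.4% in the other 9, while the lens level is at least 51310 in WT-RA replicates 2 and 3 and KO-RA replicate 3.

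At an unadjusted p under 0.05, 1344 genes were higher in KO-RA (7.01% of those tested) and 1083 were lower (5.65%). The groups did not overlap, with KO-RA higher, for 2043 genes (10.7%) and, with KO-RA lower, for 1359 genes (7.09%). DESeq2, the tool the authors used, called 63 genes at the same thresholds, 27 higher and 36 lower, or 0.231% of the 27318 genes to which it gave a p. All 63 had the same sign in edgeR, 59 of them at an unadjusted p under 0.05, but apart from mt-Nd3 none had an adjusted p below 0.231 there. Without the fold threshold, 731 genes had an adjusted p under 0.1 in DESeq2 and 1 in edgeR, both with Benjamini-Hochberg adjustment. The number of differentially expressed genes in this comparison therefore depended on the tool and, in DESeq2, on the fold threshold.

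By the rule for named genes, the 24 genes comprised mt-Nd3 and the 23 genes of smallest p with a mean of at least 1 CPM and groups that did not overlap. None of the 23 was called, and each had an adjusted p of 0.231 in edgeR with Benjamini-Hochberg adjustment. In DESeq2 all 23 had an adjusted p under 0.1 (at most 0.00489), and 4 of them also reached the fold threshold. Of the 23, 13 were higher in KO-RA by 0.39 to 1.12 on the log2 scale and 10 were lower, with log2 fold changes of -3.12 to -0.46. All 23 kept their sign within the lens-high libraries alone, with 1 KO-RA library, and within the lens-low libraries alone, with 1 WT-RA library. The condition that the groups do not overlap all but fixed this outcome, so it says nothing about lens content.

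The difference of largest size among them was that of Fyb, which encodes an adaptor protein of T cells and myeloid cells. Fyb held 1.35, 0.504 and 3.93 CPM in KO-RA and 8.88, 17.2 and 23.8 CPM in WT-RA. The highest KO-RA library was below the lowest WT-RA library, and its log2 fold change was -3.12 (SE 0.60). It was -4.16 without KO-RA replicate 3 and ran from there to -2.66 over the libraries left out in turn. DESeq2 called it (log2 fold change -3.13, adjusted p = 3.41e-05 with Benjamini-Hochberg adjustment). Plekhg2 was the next in size among the lower genes. It held 3.82, 5.58 and 3.34 CPM in KO-RA and 6.68, 9.80 and 10.2 CPM in WT-RA, a log2 fold change of -1.06 (SE 0.21).

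The other 8 lower genes were expressed at higher levels and differed by less. Pygm, the muscle form of glycogen phosphorylase, held 32.0, 32.4 and 35.6 CPM in KO-RA and 44.7, 49.3 and 48.4 CPM in WT-RA. Gstp1, a glutathione S-transferase, held 140.2, 124.8 and 159.1 CPM in KO-RA and 251.7, 202.9 and 272.1 CPM in WT-RA. The log2 fold changes were -0.51 (SE 0.09) for Pygm and -0.78 (SE 0.14) for Gstp1. Gps2, a subunit of the NCoR corepressor complex, had a log2 fold change of -0.53, and Mks1, a protein of the ciliary transition zone, one of -0.61. Sharpin, a subunit of the linear ubiquitin chain assembly complex that acts in NF-κB signaling, held 110.0, 90.6 and 100.04 CPM in KO-RA and 145.1, 144.6 and 136.9 CPM in WT-RA. Pfn1 (profilin 1, an actin-binding protein), Naa80 (the acetyltransferase of actin's amino terminus) and Aup1 (a protein of the endoplasmic reticulum and lipid droplets) had log2 fold changes of -0.50, -0.46 and -0.47.

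Among the 13 higher genes, 2 encode ionotropic neurotransmitter receptor subunits. Gabrb2, a subunit of the GABA-A receptor, held 20.8, 15.6 and 20.4 CPM in KO-RA and 12.0, 11.0 and 10.8 CPM in WT-RA (log2 fold change 0.75, SE 0.13). Gria2, a subunit of the AMPA glutamate receptor, held 65.7, 70.3 and 62.7 CPM in KO-RA and 51.4, 49.1 and 51.0 CPM in WT-RA (log2 fold change 0.39, SE 0.08). Every KO-RA library was above every WT-RA library in both. Ncam2, a neural cell adhesion molecule, had a log2 fold change of 0.58, and Mpp7, a scaffold protein of cell junctions, one of 0.62.

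The other higher genes have varied roles. Dennd1b, an exchange factor for Rab GTPases, held 15.1, 12.5 and 13.7 CPM in KO-RA and 7.00, 7.74 and 8.95 CPM in WT-RA (log2 fold change 0.80, SE 0.15). Fgd4, an exchange factor for Cdc42, held 41.2, 34.9 and 39.8 CPM in KO-RA and 21.2, 23.7 and 26.8 CPM in WT-RA (log2 fold change 0.69, SE 0.13). Tmf1, a protein of the Golgi, had a log2 fold change of 0.58. Zfp292, a zinc finger protein, Phip, a bromodomain protein, and Arid4b, a subunit of a histone deacetylase complex, had log2 fold changes of 0.70, 0.57 and 0.54. D3Ertd751e had one of 0.64. The differences of largest size on this side were those of Gm47924 (1.12, SE 0.22) and of ENSMUSG00000116034, which has no symbol in the annotation used (1.03, SE 0.20).

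**Figure D2:**
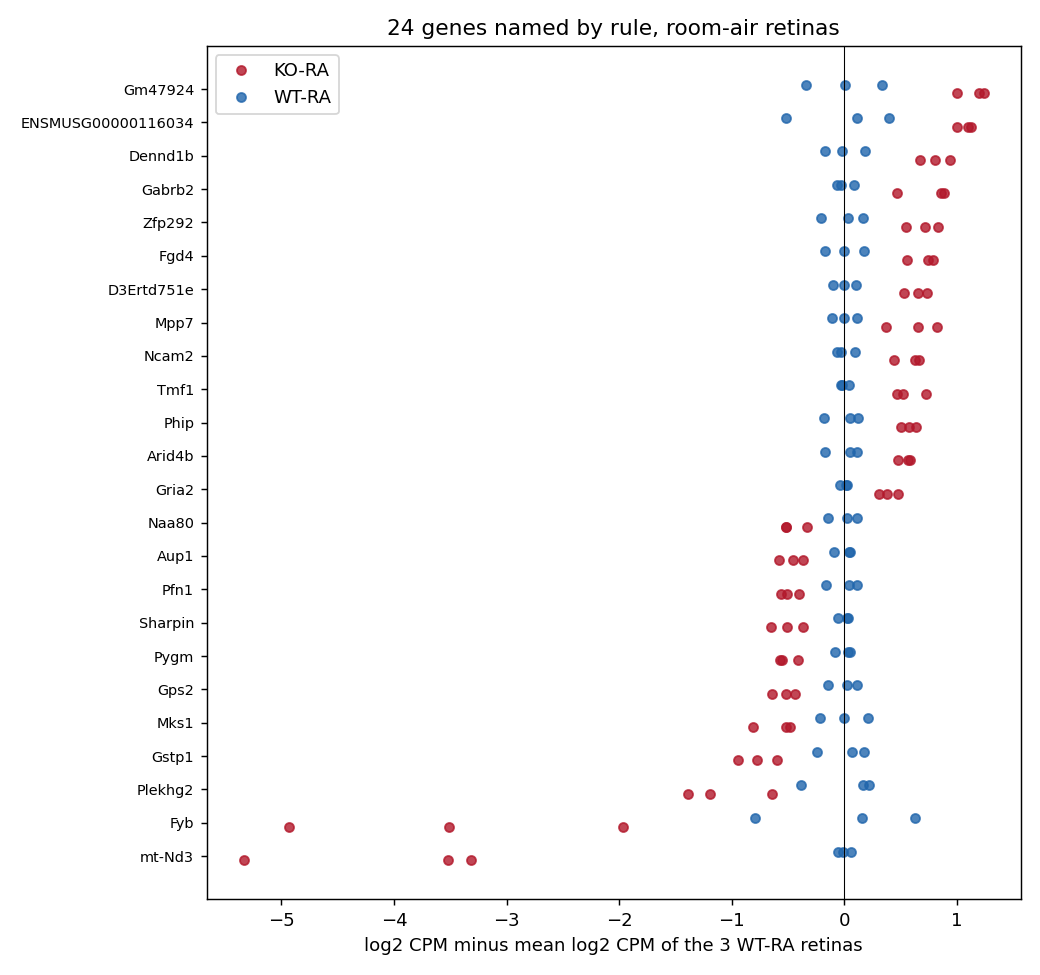
Log2 CPM of the 24 named genes in each of the 6 room-air retinas, relative to the mean log2 CPM of the 3 WT-RA retinas, with 1 point per library. The groups do not overlap in any of the 24 genes, which the rule required, and mt-Nd3 and Fyb are the only ones whose fold change exceeds 1.12 on the log2 scale in either direction.

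The genes that were higher in KO-RA at an unadjusted p under 0.05 had longer transcripts of lower GC content than those that were lower. GC content and length were those of the longest transcript and were known for 98.5% of the genes tested. The median GC content was 42.6% for the 1318 genes higher in KO-RA, 55.1% for the 1061 lower and 49.5% for all 18886 genes. The median length was 4673.5 bases for the higher genes, 2268 for the lower and 2992 for all. In the quintile of genes with the lowest GC content, 20% were higher and 1.30% lower in KO-RA. In the quintile with the highest, 0.662% were higher and 13.4% lower.

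The tilt was also read library by library. The median deviation of the quintile of lowest GC content minus that of the quintile of highest, on the log2 scale, was 0.153, 0.139 and 0.271 in the KO-RA retinas and -0.304, -0.223 and -0.0401 in the WT-RA retinas. The groups did not overlap. After hyperoxia the median log2 fold change, KO minus WT, was 0.0202 in the lowest quintile and 0.00885 in the highest, against 0.211 and -0.165 in room air. With an offset for length and GC content fitted in each library, an alternative chosen after seeing the data, the genes at an unadjusted p under 0.05 numbered 598 higher and 961 lower. mt-Nd3 remained the 1 gene called in that fit. Of the 23 other named genes, 22 remained at an unadjusted p under 0.05 with the offset, and 22 had a smaller difference. Both counts include ENSMUSG00000116034, which has no known GC content or length and so received no offset. Gria2 went from 0.39 to -0.012. The 12 higher genes with a known value had a GC content of 36.8% to 44.0%, and the 10 lower ones 48.4% to 59.4%. The part of base composition and length in the differences of single genes was not tested further.

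**Figure D3:**
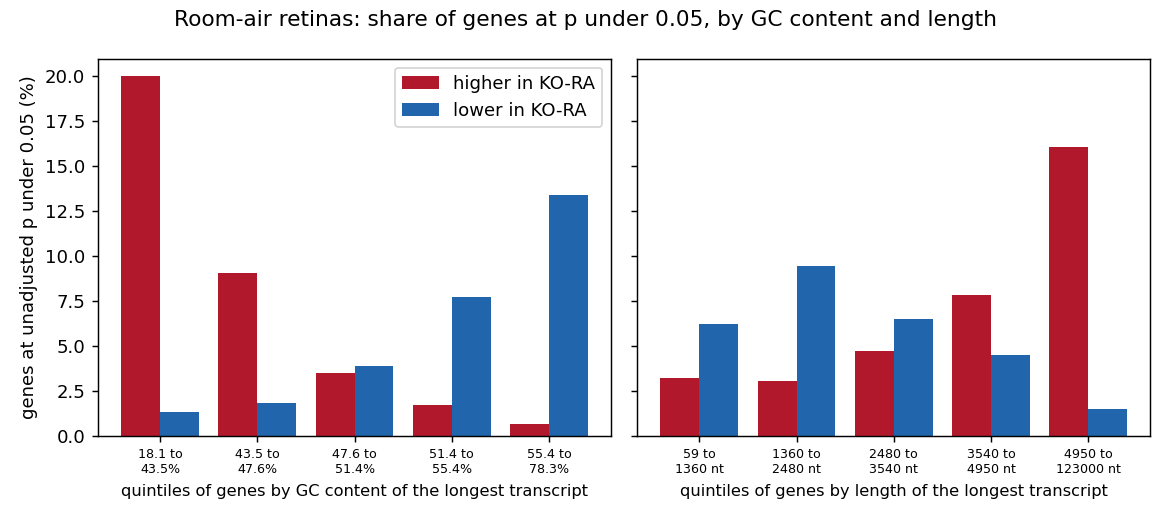
Share of genes (%) at an unadjusted p under 0.05 that were higher (red) or lower (blue) in KO-RA than in WT-RA retinas, by quintile of GC content (left) and of length (right) of the longest transcript. The share of higher genes drops from 20% to 0.662% from the lowest to the highest quintile of GC content, and the share of lower genes goes from 1.30% to 13.4%.

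No gene of pyroptosis and the inflammasome was called. Of 51 genes written in the list, 34 had enough counts to be tested, and 2 were higher and 3 lower (unadjusted p under 0.05). Over all genes the shares were 7.01% higher and 5.65% lower, and the counts of the lists below are to be read beside them. The median log2 fold change of the 34 was 0.15, against 0.00055 over all genes, and it was 0.056 with the length and GC offset. Besides Gsdmd, the lower ones were Zbp1, a sensor of Z-form nucleic acids, and Irf2, a transcription factor known to drive Gsdmd expression. Irf2 held 13.3, 13.7 and 14.7 CPM in KO-RA and 17.7, 16.0 and 15.1 CPM in WT-RA (log2 fold change -0.23, SE 0.09). The higher ones were Casp12, an inflammatory caspase (1.498, SE 0.60, all libraries under 1 CPM), and Dpp8, a peptidase that restrains the NLRP1 inflammasome (0.19, SE 0.09).

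The executioners and cytokines next to gasdermin D in the pathway differed little or were barely detected. Gsdme, the gasdermin cut by caspase-3, held 14.1, 11.5 and 11.0 CPM in KO-RA and 11.8, 12.5 and 11.7 CPM in WT-RA (log2 fold change 0.02, SE 0.11). Il18 held 12.1, 12.0 and 17.4 CPM in KO-RA and 12.3, 17.3 and 16.2 CPM in WT-RA (log2 fold change -0.14, SE 0.20). The groups overlapped in both. Ninj1, which ruptures the plasma membrane late in lytic death, had a log2 fold change of -0.24 (SE 0.19). Casp1, Casp4 and Pycard were at or under 1.54 CPM in every library, and Nlrp3 and Il1b did not have enough counts to be tested.

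Of 32 genes of apoptosis and necroptosis, 4 were higher and 3 lower (unadjusted p under 0.05), and none was called. Trp53, the p53 tumor suppressor, held 20.7, 22.6 and 20.7 CPM in KO-RA and 26.8, 26.9 and 29.9 CPM in WT-RA (log2 fold change -0.38, SE 0.10). Birc2 and Birc3, inhibitors of apoptosis that also act in TNF receptor signaling, had log2 fold changes of 0.26 (SE 0.08) and 0.85 (SE 0.30). Birc3 held 1.55, 1.85 and 1.27 CPM in KO-RA and 0.840, 0.801 and 0.942 CPM in WT-RA, and after hyperoxia its log2 fold change was -0.70. In TNF and NF-κB signaling, 1 gene was higher and 3 were lower of 29 tested. In the interferon-stimulated list these numbers were 1 and 2 of 37.

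None of the other genes that the study followed in the retina was called in room air. The log2 fold changes were 0.29 (SE 0.41) for Birc5, an inhibitor of apoptosis that also acts in mitosis, and -1.87 (SE 1.38) for Edn2, endothelin 2. They were 0.07 (SE 0.25) for Nlrc3, a regulator of innate immune signaling, and -0.12 (SE 0.16) for Pdgfrb, a receptor of pericytes. Stat3, a transcription factor of cytokine signaling, had a log2 fold change of -0.27 (SE 0.24), and Rbpms, a marker of ganglion cells, one of -0.22 (SE 0.18). Every KO-RA library was below every WT-RA library in Pdgfrb, Stat3 and Rbpms, but none of them had an unadjusted p under 0.05 in edgeR. Of all genes tested, 7.09% were non-overlapping in this direction. Aif1, a marker of microglia, held 0.642, 1.48 and 1.35 CPM in KO-RA and 1.60, 0.343 and 1.63 CPM in WT-RA (log2 fold change -0.04, SE 0.56). The adjusted p of these 7 genes ran from 0.609 to 0.990 in edgeR with Benjamini-Hochberg adjustment.

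Microglia and macrophage markers were mostly lower in KO-RA, but the groups overlapped in their sum. Of 23 tested, 19 had a negative log2 fold change, 4 were lower and none higher at an unadjusted p under 0.05, and the median was -0.26. The summed level was 124.4, 134.6 and 142.7 CPM in KO-RA and 167.7, 122.6 and 187.8 CPM in WT-RA. Cd68, a lysosomal protein of macrophages, held 3.99, 3.97 and 4.29 CPM in KO-RA and 5.88, 8.12 and 8.27 CPM in WT-RA (log2 fold change -0.86, SE 0.25). Spi1, the transcription factor PU.1 of myeloid cells, held 0.372, 0.874 and 0.516 CPM in KO-RA and 1.48, 0.915 and 5.61 CPM in WT-RA (log2 fold change -2.17, SE 0.64).

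With the length and GC offset the median of the microglia and macrophage list was -0.17. Spi1 and Fyb were among the 36 lower genes called by DESeq2. A further 4 of the 36 are given here, picked after their values were seen, so they say nothing about the list. Bin2 held 0.879, 1.35 and 0.755 CPM in KO-RA and 4.28, 1.83 and 4.80 CPM in WT-RA, and Alox5ap, the activating protein of leukotriene synthesis, 10.4, 11.2 and 12.6 CPM against 24.96, 23.4 and 20.7 CPM. The groups did not overlap in either. Abi3, expressed in microglia, had a DESeq2 log2 fold change of -1.01 (SE 0.30), and H2-Ab1, a chain of the major histocompatibility complex class II, one of -1.08 (SE 0.30). In edgeR the adjusted p of Spi1, Bin2, Alox5ap, Abi3 and H2-Ab1 was 0.238 to 0.245 with Benjamini-Hochberg adjustment.

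Complement genes had 2 higher and 3 lower of 21 tested at an unadjusted p under 0.05, with a median log2 fold change of -0.25. By sign, 5 of the 21 were higher and 16 lower, and the gene given here is from the higher side. Cd59a, an inhibitor of the membrane attack complex, held 38.3, 33.5 and 35.5 CPM in KO-RA and 31.0, 24.2 and 24.2 CPM in WT-RA. In the list of gliosis and stress response 2 of 18 genes were lower, Lif and C4b, and the median was -0.39. Gfap, the intermediate filament of reactive glia, held 8.62, 12.8 and 9.73 CPM in KO-RA and 12.2, 6.52 and 28.9 CPM in WT-RA, so the groups overlapped. Of 16 Müller glia genes 1 was higher and none lower, and of 6 astrocyte genes 1 was higher and none lower.

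Photoreceptor markers were abundant in every library and differed in both directions. Of 21 rod genes 3 were higher and 2 lower (unadjusted p under 0.05). Gnat1, the rod transducin, held 10861, 8967 and 10549 CPM in KO-RA and 12866, 13258 and 11681 CPM in WT-RA. Its log2 fold change was lower than 0 (-0.32, SE 0.11), and that of Rp1, a microtubule protein of the outer segment, was above 0 (0.55, SE 0.15). Neither was called.

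Of 14 cone genes 3 were higher and 3 lower (unadjusted p under 0.05). The groups did not overlap for 3 genes in each direction, beside 10.7% (KO-RA higher) and 7.09% (KO-RA lower) of all genes tested. By sign, 5 of the 14 were higher and 9 lower, and their median log2 fold change was -0.073. The genes given here are from the lower side only. Opn1mw, the cone opsin for middle wavelengths, held 213.8, 228.0 and 269.6 CPM in KO-RA and 332.9, 367.4 and 347.0 CPM in WT-RA (log2 fold change -0.56, SE 0.12). Arr3, the cone arrestin, held 162.2, 186.6 and 201.3 CPM in KO-RA and 261.7, 318.8 and 276.6 CPM in WT-RA (log2 fold change -0.64, SE 0.15). Both were lower in every KO-RA library than in any WT-RA library, and their GC content, 50.9% and 49.1%, was near the median of all genes. With the length and GC offset their log2 fold changes were -0.54 and -0.64. The median of all 14 cone genes with the offset was -0.084. After hyperoxia the log2 fold changes of Opn1mw and Arr3 were 0.14 and -0.17.

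The lists of inner retinal neurons held no called gene. Of 17 bipolar genes 1 was higher and 1 lower (unadjusted p under 0.05), of 16 amacrine genes 1 and 2, of 17 ganglion cell genes 0 and 1, and of 8 horizontal cell genes 0 and 0, beside 7.01% and 5.65% over all genes. Of 28 synapse genes 7 were higher and none lower, with a median log2 fold change of 0.15. Beside Gabrb2 and Gria2 these included Homer1, a postsynaptic scaffold, at 16.0, 15.4 and 15.3 CPM in KO-RA and 10.7, 12.3 and 13.2 CPM in WT-RA. The synapse list had a median GC content of 45.7% and a median length of 5320 bases. Its median log2 fold change was 0.00045 with the length and GC offset.

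Vascular lists held no called gene. Of 28 genes of angiogenic signaling 4 were higher and 1 lower (unadjusted p under 0.05), of 20 endothelial genes 2 and 2, and of 13 genes of pericytes and smooth muscle 1 and 1. By sign at any p, 14 were higher and 14 lower in angiogenic signaling, 9 and 11 in endothelium, and 4 and 9 in pericytes and smooth muscle. Kdr and Fzd4, given here, are from the higher side only. Kdr, the main receptor for VEGF-A, held 52.1, 40.5 and 43.0 CPM in KO-RA and 38.2, 34.5 and 35.6 CPM in WT-RA (log2 fold change 0.32, SE 0.10). Fzd4, the receptor for norrin in retinal vessels, had a log2 fold change of 0.49 (SE 0.16). After hyperoxia the log2 fold changes of Kdr and Fzd4 were -0.23 and 0.04.

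Of 27 HIF targets and glycolysis genes 3 were lower and none higher at an unadjusted p under 0.05. Epo, erythropoietin, held 0.203, 0.437 and 0.119 CPM in KO-RA and 1.32, 0.686 and 1.28 CPM in WT-RA. Its log2 fold change was -2.08 (SE 0.42), which DESeq2 called (adjusted p = 0.00386 with Benjamini-Hochberg adjustment) and edgeR did not. Egln3, the oxygen-sensing prolyl hydroxylase that HIF induces, had a log2 fold change of -0.62 (SE 0.22). Of 30 genes of the extracellular matrix none was higher or lower at that p.

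Circadian and activity-dependent genes differed in a few members. Of 20 clock genes 3 were higher and none lower at an unadjusted p under 0.05. Nr1d2, a nuclear receptor that represses clock genes, held 101.6, 99.8 and 101.7 CPM in KO-RA and 72.9, 77.5 and 81.8 CPM in WT-RA (log2 fold change 0.38, SE 0.08). Clock, a core activator of the circadian loop, had a log2 fold change of 0.46 (SE 0.10). With the length and GC offset these were 0.18 and 0.17. Of 25 immediate early genes 3 were lower and none higher. Egr1, a transcription factor induced by neuronal activity, held 17.9, 9.35 and 9.97 CPM in KO-RA and 22.8, 30.6 and 34.1 CPM in WT-RA, and after hyperoxia its log2 fold change was of the opposite sign (-1.23 in room air, 1.38 after hyperoxia). Of 16 glucocorticoid-responsive genes none differed, and of 17 heat shock and cold response genes 1 was lower.

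Of 26 cell cycle genes 2 were lower and none higher at an unadjusted p under 0.05. Bub1b, a kinase of the spindle checkpoint, held 6.12, 11.0 and 6.75 CPM in KO-RA and 11.0, 18.2 and 18.1 CPM in WT-RA. The groups overlapped in Bub1b, and 11 of the 26 genes had a positive log2 fold change.

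**Figure D4:**
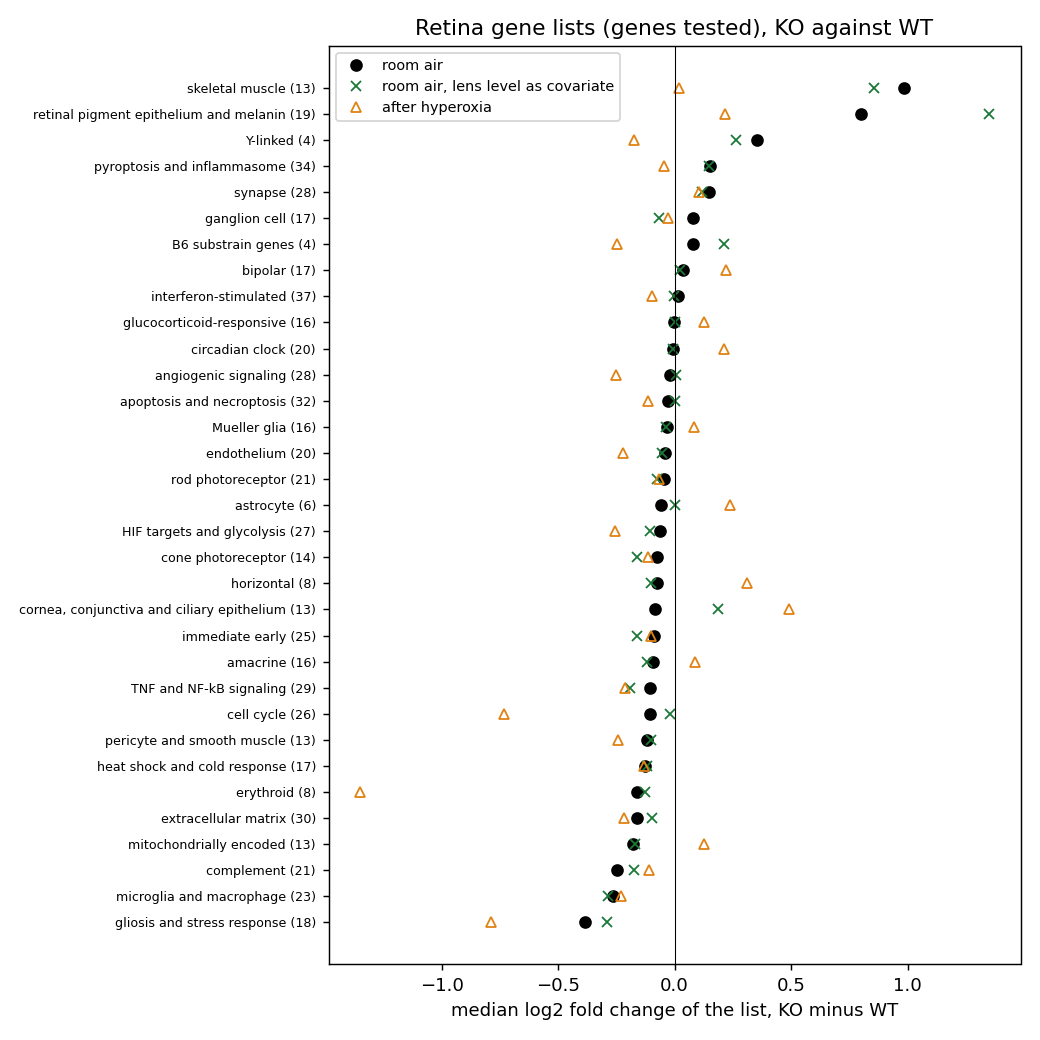
Median log2 fold change, KO minus WT, of each gene list in the retina, with the number of genes tested in parentheses and the lens list (median -1.19) left out: room air (filled circles), room air with the lens level as a covariate (crosses) and after hyperoxia (triangles). In room air the lists of retinal neurons and Müller glia lie between -0.0937 and 0.0807, and skeletal muscle (0.99) and retinal pigment epithelium (0.80) have the highest medians of the lists drawn.

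The summed levels of pigment epithelium markers and of skeletal muscle markers each stood out in 1 KO-RA library. Of 19 genes of the retinal pigment epithelium and melanin, 18 had a positive log2 fold change and 1, Mitf, was higher at an unadjusted p under 0.05. Their summed level was 1486, 1626 and 4573 CPM in KO-RA and 1439, 1731 and 1812 CPM in WT-RA, so 1 library, KO-RA replicate 3, stood above the rest. Rpe65, the isomerase of the visual cycle, was at 248.9 CPM in that library and at 11.6 to 37.3 CPM in the other 5. Mitf, the transcription factor of pigment cells, held 5.20, 6.05 and 6.56 CPM in KO-RA and 3.36, 3.39 and 3.47 CPM in WT-RA. Every KO-RA library was thus above every WT-RA library in Mitf.

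Of 13 skeletal muscle genes 5 were higher and 1 lower (unadjusted p under 0.05). Their summed level was 40.8, 143.7 and 67.1 CPM in KO-RA and 60.4, 65.0 and 46.9 CPM in WT-RA, and KO-RA replicate 2 was the highest. Myl1, a myosin light chain of fast muscle, was at 31.9 CPM in that library and at 0.520 to 5.20 CPM in the others. Of 13 genes of cornea, conjunctiva and ciliary epithelium 2 were higher and 1 lower, and of 8 erythroid genes none. The part of these tissues in other differences was not tested.

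Lens genes varied too much between libraries to be compared by genotype. All 34 were tested, all overlapped between the groups, none had an unadjusted p under 0.05, and their median SE was 2.08 on the log2 scale against 0.19 for all genes. Cryaa, a crystallin of lens fibers, held 12.7, 0.673 and 8315 CPM in KO-RA and 18.2, 6242 and 21286 CPM in WT-RA. Mip, the lens aquaporin, held 1.55, 0.908 and 184.7 CPM in KO-RA and 1.52, 151.0 and 630.6 CPM in WT-RA. With the lens level as a covariate 4 genes were called, mt-Nd3 and Fyb lower and Itgb8 and Col8a1 higher in KO-RA.

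Among the 63 genes DESeq2 called, Gstm2 and Ptger1, picked after their values were seen, differed between the lens-high and the lens-low libraries. Gstm2, a glutathione S-transferase, held 0.608, 1.65 and 0.954 CPM in KO-RA and 0.520, 2.17 and 21.1 CPM in WT-RA, with a log2 fold change of -3.60 in the lens-high libraries and 1.10 in the lens-low ones. Ptger1, a prostaglandin E2 receptor, had -3.12 and 0.06 in these. Of the 27 higher genes 25 were predicted genes, pseudogenes or genes without a symbol, and of the 36 lower ones 7 were. In 7 of the 63, 1 of the groups was listed at 0 in every library, so no fold is given for them.

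Genes near the edited locus were read apart, since a selected allele brings its neighbors on the chromosome with it. Of 361 annotated genes that start within 5 Mb of Gsdmd, 186 were tested and none was called. At an unadjusted p under 0.05, 2 were higher and 18 lower in KO-RA, beside 7.01% and 5.65% over all genes. The median log2 fold change of the 186 was -0.11. These genes had a median GC content of 55.8% against 49.5% for all genes, and with the length and GC offset their median log2 fold change was 0.017. Sharpin, 0.485 Mb from Gsdmd, was named above, and Naprt, an enzyme of NAD synthesis 0.0286 Mb away, had a log2 fold change of -0.77 (SE 0.33).

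Of 4 genes written down as differing between C57BL/6 substrains, 1 was higher and 1 lower (unadjusted p under 0.05). Wdfy1 held 32.9, 29.5 and 32.6 CPM in KO-RA and 19.6, 21.1 and 24.03 CPM in WT-RA. Its log2 fold change was 0.55 (SE 0.14) in room air and 0.71 after hyperoxia. Entpd4 had log2 fold changes of -0.44 (SE 0.18) and -0.50.

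The genotype comparison after hyperoxia shares no library with the one in room air. In it 56 genes were called. Of the 24 named genes 18 had the same sign in both, against 53.2% of all 19173 genes. At an unadjusted p under 0.05 after hyperoxia, 7 of the 24 had the same sign and 1, Pygm, the opposite sign. Over all 19173 genes these counts were 1417 and 995. Gria2 had log2 fold changes of 0.39 and 0.35 in the 2 comparisons and Gabrb2 of 0.75 and 0.37. Pygm had -0.51 in room air and 0.24 after hyperoxia. Fyb had -3.12 and -0.48, and mt-Nd3 -3.82 and 0.11. The difference between the comparisons was tested as an interaction, and none of the 24 passed (smallest adjusted p = 0.123, edgeR with Benjamini-Hochberg adjustment).

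**Figure D5:**
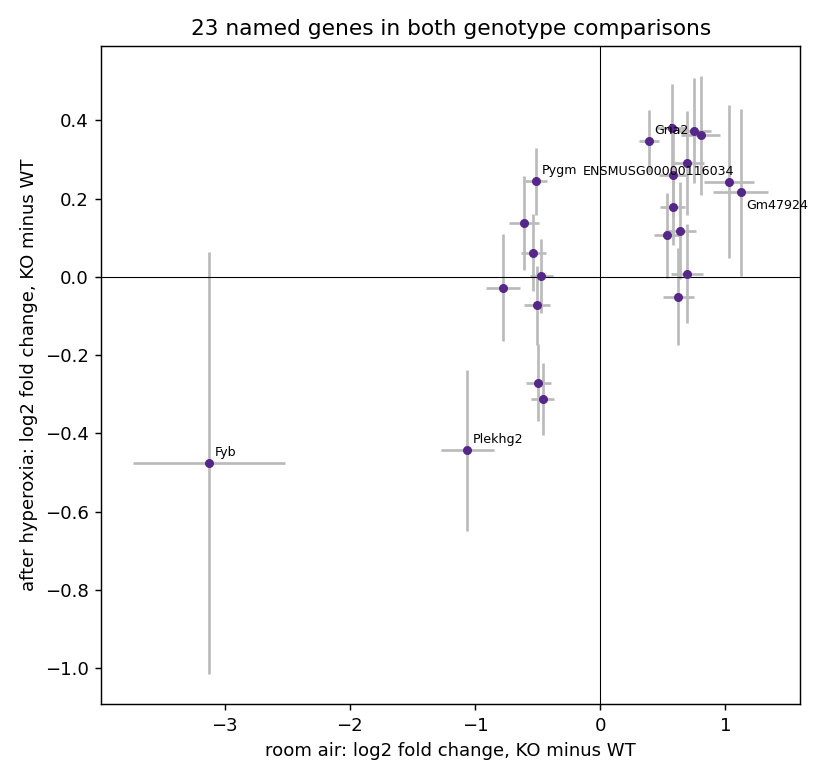
Log2 fold change, KO minus WT, of 23 named genes in room-air retinas (horizontal axis) and in retinas after hyperoxia (vertical axis), with SEs as bars; mt-Nd3 (-3.82 and 0.11) is left out for scale. The 2 axes differ in range, and the genes were chosen by their room-air p, so their room-air differences are large by choice.

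Of the 2427 genes at an unadjusted p under 0.05 in room air, 60.3% had the same sign after hyperoxia, against 52.2% of the other genes. For those higher in KO-RA it was 64.7% and for those lower 54.9%. In the lungs of room-air mice, tested separately, 54.9% of the 2147 of them tested there had the same sign, against 49.9% of the other genes. Genes are not independent of each other, so these shares are descriptions.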

How the data were processed

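The authors sequenced the retinas at BGI as 150-base paired reads, assigned reads with kallisto, summed them per gene with tximport, and deposited estimated counts (expected counts), 1 column per retina, not divided by library size. The tximport settings are not given in the sources used here, so tissues were fitted separately. The labels' processing notes name FastQC, kallisto and mm10, and the study's methods name another mouse build. Gene positions, lengths and sequences here are from GENCODE vM21 on GRCm38, matched by gene identifier. Counts were rounded and fitted in R 4.3.3 with edgeR 4.0.16: all 12 retinas, 1 term per group, TMM, filterByExpr by group, estimateDisp, glmQLFit (robust) and glmQLFTest, with p adjusted after Benjamini and Hochberg over 19173 genes. A standard error is the size of the log2 fold change divided by the root of its F. CPM use TMM factors, except lung values, which are CPM of the total. DESeq2 1.42.0 was an alternative, with those given in the closing section. In the main fit a p-value sets a difference against the spread between libraries within groups, estimated from all 12 retinas, those after hyperoxia included.

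Named genes were Gsdmd, the genes the study followed in the retina, and up to 24 by rule: called genes whose mean was 1 CPM or more, with groups that do not overlap and no place in the lens list, then, until 24, the genes of smallest p that meet the same conditions, and at most 3 members of each list. Of the tested identifiers 432 shared their counts in all 12 retinas with another, and each such set was named once. The 34 lists were written from general knowledge. Members, lists and rules were chosen with earlier results of these data known.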

Additional observations from a re-analysis of the deposited data

Results flagged for a closer look

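Among the genes of the lists and the named genes, 1 had a genotype difference that differed between room air and hyperoxia by the test of the interaction itself (adjusted p = 0.0252, edgeR with Benjamini-Hochberg adjustment over all genes). This was Rbm3, a cold-inducible RNA-binding protein. It held 107.9, 119.5 and 115.5 CPM in KO-RA and 115.6, 108.5 and 113.0 CPM in WT-RA, so the room-air groups overlapped (log2 fold change 0.02). After hyperoxia it held 260.9, 247.9 and 238.3 CPM in KO and 121.6, 127.8 and 131.4 CPM in WT (log2 fold change 0.97). The difference between both, room air minus hyperoxia, was -0.948 on the log2 scale. Groups of 3 libraries were not tested for outlying values.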

How the results depend on the processing

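The 1 called gene was the same count under RLE size factors, without the filter on low counts, without lens genes, with a sex term, at any fold and with the length and GC offset, and in the lens-high libraries, where KO-RA is 1 library assumed to vary like the other groups. It was 63 with DESeq2, 4 with the lens level as a covariate, and 0 in the 6 room-air retinas alone, in the lens-low libraries (where WT-RA is 1 library) and with mt-Nd3 and Gm28438 summed. The count at any fold is that of edgeR, and DESeq2 had 731 genes at an adjusted p under 0.1 at any fold. Leaving out 1 library gave 0 to 1 genes called in edgeR. The call of mt-Nd3 was lost without KO-RA replicate 3 or without any 1 of the 3 WT-RA libraries (adjusted p 0.102 to 0.21 in edgeR). Its log2 fold change stayed between -4.16 and -3.42. Counts at an unadjusted p under 0.05 (2427) became 1578 in the lens-high libraries and 1559 with the offset, and 1940 to 2606 without 1 library. DESeq2 gave 2725, and the fits that called no gene gave 1875 (6 retinas), 2780 (lens-low) and 2427 (summed pair). The log2 fold change of Gsdmd ran from -2.08 to -0.957 without 1 library. Signs turned, in genes not called, for Gria2 with the offset (-0.012), Nlrc3 (-0.0634 without KO-RA replicate 2, -0.0884 without WT-RA replicate 1, -0.263 in the lens-high libraries, up to 0.307 without WT-RA replicate 2), Aif1 (0.253 without KO-RA replicate 1, 0.238 without WT-RA replicate 1, 0.253 without WT-RA replicate 3, 0.462 in the lens-high libraries, -0.479 to 0.253 over all left-out libraries) and Edn2 (0.443 without WT-RA replicate 3, -2.54 without KO-RA replicate 2). The causes were not tested. No paired analysis was possible because the labels give no replicate number that both groups share. Genes of a few CPM rest on few counts, which limits Gsdmd, Epo, Spi1, Casp1 and Aif1.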
